A study of Drosophila melanogaster with 6 samples.

Results

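The aminoacyl-tRNA synthetase genes of Drosophila melanogaster were followed in S2 cells exposed to hydrogen peroxide (H2O2) and in S2 cells given medium alone. They were chosen by name, as the genes whose FlyBase symbol holds a three-letter amino acid code followed by RS and ends in RS or RS-m. The rule found 35 of the 16451 genes in the files, and all 35 passed the filter on low counts that left 8955 genes tested. Of these 35 genes, 20 carry no suffix and are called cytosolic here, and 15 carry the suffix -m, which marks enzymes of the mitochondrion. They lie on every large chromosome arm, with 10 on 3L, 8 on 2R, 7 on 3R, 6 on 2L and 4 on X.

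An aminoacyl-tRNA synthetase joins an amino acid to the tRNAs that read its codons, so the set as a whole supplies every charged tRNA used by the ribosome. Mitochondria have their own ribosomes and tRNAs, and most amino acids have a second, nuclear gene whose enzyme is imported there. The enzymes fall into a pair of unrelated families, class I and class II, which differ in the fold of the catalytic domain. Uncharged tRNA, which builds up when charging fails, is sensed by the kinase Gcn2, a starting point of the integrated stress response.

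There were 3 libraries from S2 cells exposed to 10 mM H2O2 for 30 min at 25 °C and 3 control libraries from S2 cells to which medium alone was added. S2 is an established embryonic line with hemocyte (blood cell) features, and per the labels all libraries were wild type and grown in medium with 10% serum. The labels do not state that replicates were separate cultures, so the spread behind each p-value is that of these libraries and may be technical. RNA was measured in bulk, so fewer cells of a kind and less RNA per cell cannot be told apart.

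Library totals ran from 35404927 to 42043808 expected counts in H2O2 and from 36947768 to 39253171 in control. The identity of the cells was read from 12 hemocyte markers, all of which were tested and which summed to between 7774 and 9377 normalized counts relative to the library total (CPM) in H2O2, against 10165 to 12555 CPM in control. The defining marker Hml was at 3211 ± 305 CPM in H2O2 and 5272 ± 1053 CPM in control, a log2 fold change of −0.72 that was not called (adjusted p = 0.0817), on a transcript of 11755 nt. With replicate pairs blocked in the same fit, Hml was called lower at −0.70 (adjusted p = 0.000195). The block called 4 of the 12 markers lower and 0 higher, against 12.8% lower and 8.99% higher of all genes. DESeq2 without the block called 1 of the 12. Once the trend of fold change with transcript length was taken out as well, Hml stood at −0.14 (adjusted p = 0.203) and 0 of the 12 were called. The median of the 12 markers was −0.13 and 4 were positive, among them srp, a blood cell transcription factor, at 432 ± 9.93 CPM in H2O2 and 408 ± 34.4 CPM in control. The 5 fat body markers summed to at most 1.07 CPM in H2O2 and 0.269 CPM in control, and Lsp1alpha was at 0 in every library. Neuron markers summed to 40.4 to 53.3 CPM in H2O2 and 49.9 to 62.9 CPM in control, muscle markers to 5.51 to 6.69 CPM in H2O2 and 5.60 to 8.21 CPM in control. Ovarian somatic markers summed to 419 to 484 CPM in H2O2 and 399 to 531 CPM in control, nearly all of it zfh1. The hemocyte sum did not overlap between the groups, but Hml was its largest part and the rest of the sum overlapped. The part of the hemocyte sum in the results below was not tested. Throughout, ± is the SD over 3 libraries.

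Levels of different genes were compared on the TPM scale, a share of all transcripts that corrects for transcript length. The 35 genes together took 2403, 1970 and 2046 TPM in H2O2 replicates 1, 2 and 3, against 2551, 2289 and 2198 TPM in control replicates 1, 2 and 3. The sums overlapped between the groups, and replicate 1 was the highest of its group in both. The 20 cytosolic genes made up most of this, with 2152, 1772 and 1820 TPM in H2O2 and 2267, 2055 and 1950 TPM in control.

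The most abundant synthetase transcripts were those of ThrRS, AspRS and AlaRS, which charge tRNAs for threonine, aspartate and alanine. ThrRS stood at 191, 208 and 196 TPM in H2O2 and at 199, 227 and 200 TPM in control. AspRS had 184, 185 and 176 TPM in H2O2, against 207, 202 and 173 TPM in control. AlaRS had 181, 150 and 150 TPM in H2O2, against 199, 178 and 162 TPM in control. For each of these genes the libraries of the groups overlapped. HisRS, SerRS, AsnRS, ArgRS and LysRS followed, with means over the 6 libraries between 103 and 143 TPM. IleRS, TyrRS, GlyRS, TrpRS, GluProRS and GlnRS lay between 73.7 and 86.8 TPM, and beta-PheRS, alpha-PheRS, ValRS, MetRS, CysRS and LeuRS between 43.4 and 62.9 TPM.

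Mitochondrial synthetase transcripts were scarcer, from a mean of 54.5 TPM for AspRS-m to 3.11 TPM for ValRS-m. AspRS-m was the exception in the order of levels, since it ranked 19 of 35, above the cytosolic genes CysRS and LeuRS. It had 50.5, 43.4 and 48.9 TPM in H2O2 and 65.7, 60.6 and 58.0 TPM in control, without overlap. Below it came LeuRS-m, SerRS-m and PheRS-m, with means of 24.6, 23.6 and 21.5 TPM. ProRS-m, TyrRS-m, TrpRS-m and AlaRS-m had means between 16.2 and 17.6 TPM, and AsnRS-m, MetRS-m, CysRS-m and ArgRS-m between 7.04 and 10.1 TPM. The lowest were IleRS-m, GluRS-m and ValRS-m, all of class I. IleRS-m had 6.21, 3.36 and 5.12 TPM in H2O2, against 8.06, 4.94 and 6.44 TPM in control. GluRS-m had 5.71, 4.12 and 4.69 TPM in H2O2 and 6.64, 4.30 and 4.47 TPM in control. ValRS-m had 3.21, 2.19 and 2.81 TPM in H2O2, against 3.71, 3.56 and 3.19 TPM in control. For each of these 3 genes the groups overlapped. In the full order of levels, 32 of the 34 neighbouring genes overlapped in their ranges over the libraries. The exceptions were LeuRS above LeuRS-m, which separated the lowest cytosolic gene from the mitochondrial genes below it, and GluRS-m above ValRS-m.

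**Figure D1:**
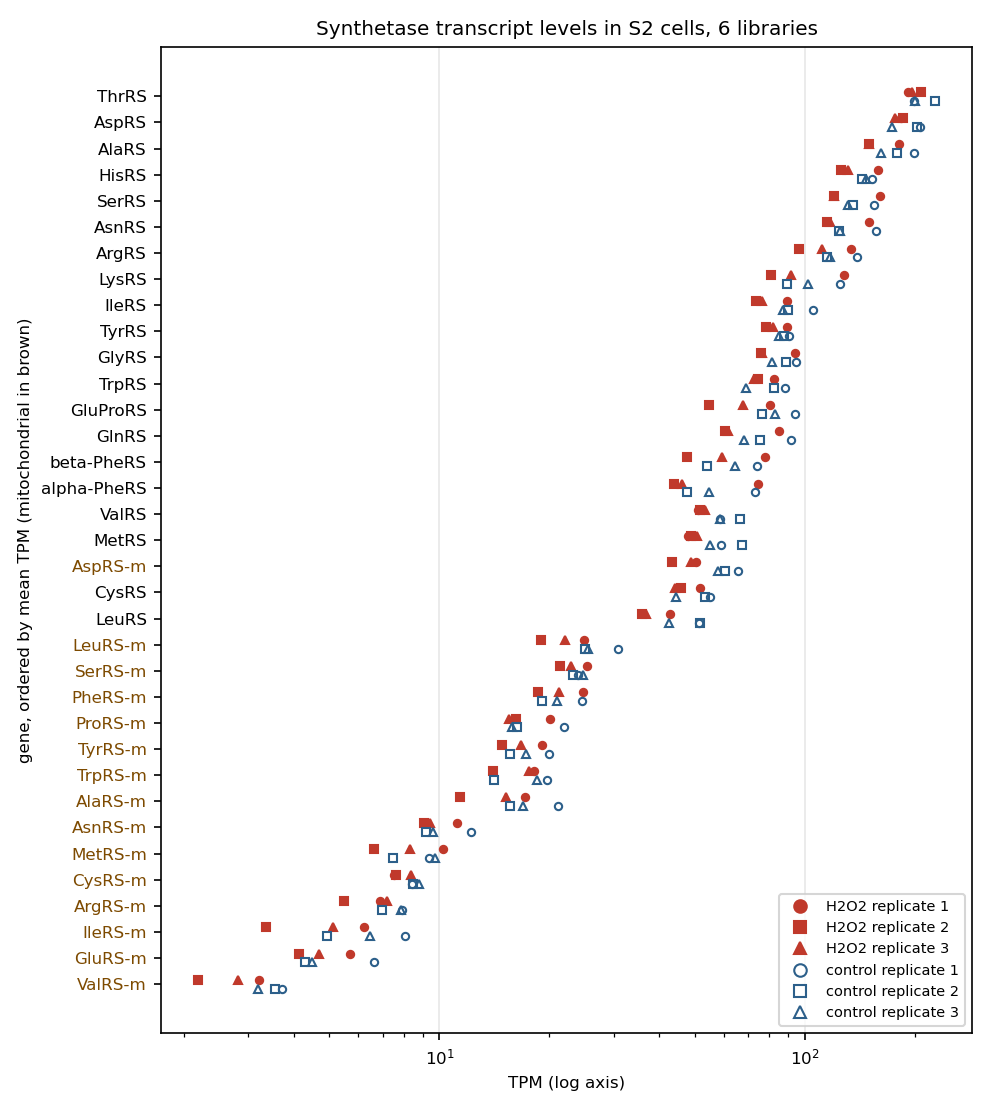
TPM (log axis) of the 35 synthetase genes in each library, ordered by their mean over the 6 libraries, with H2O2 libraries as filled red symbols and control libraries as open blue symbols, the shape giving the replicate. The genes run from ThrRS at a mean of 204 TPM to ValRS-m at 3.11 TPM, and AspRS-m is the only mitochondrial gene (brown labels) among the cytosolic ones.

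For each amino acid with both kinds of gene, the cytosolic transcript was the more abundant one in all 6 libraries, in 16 of 16 pairs. The ratio of TPM, cytosolic over mitochondrial, averaged 1.78 for LeuRS over LeuRS-m, the most even pair, and 18.5 for ValRS over ValRS-m, the least even. Both leucine enzymes belong to class I. LeuRS over LeuRS-m stood at 1.72, 1.88 and 1.66 in H2O2, against 1.66, 2.06 and 1.66 in control. AspRS over AspRS-m stood at 3.64, 4.27 and 3.60 in H2O2 and at 3.15, 3.34 and 2.98 in control, and this was the only pair whose groups did not overlap. It was named after its values were seen and was not tested.

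**Figure D2:**
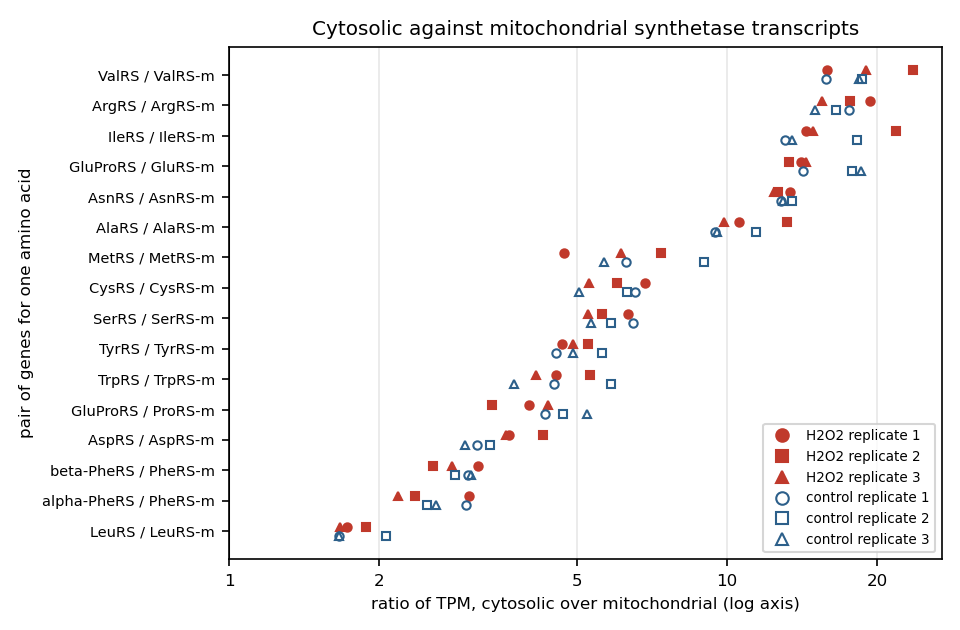
Ratio of TPM, cytosolic over mitochondrial (log axis), for the 16 pairs of genes for one amino acid, with H2O2 libraries filled red and control libraries open blue. GluProRS is set against both of its partners, and both PheRS subunits against PheRS-m. The ratios lie above 1 in every library, from LeuRS at a mean of 1.78 to ValRS at a mean of 18.5.

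Cytosolic phenylalanyl-tRNA synthetase is built from an alpha and a beta subunit in equal number, whereas the mitochondrial enzyme PheRS-m works as a single chain. The ratio of alpha-PheRS to beta-PheRS transcripts was 0.886 ± 0.095 in H2O2 and 0.906 ± 0.074 in control. alpha-PheRS had 74.6, 43.8 and 46.2 TPM in H2O2, against 73.2, 47.6 and 54.5 TPM in control. beta-PheRS had 77.8, 47.7 and 59.3 TPM in H2O2, against 74.0, 54.1 and 64.2 TPM in control. The subunits moved together between libraries, with replicate 1 highest in each group, and the groups overlapped for both. PheRS-m had 24.6, 18.6 and 21.2 TPM in H2O2, against 24.5, 19.1 and 20.97 TPM in control.

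For 5 amino acids the rule found no mitochondrial gene: glutamine, glycine, histidine, lysine and threonine. In animals one gene can make both enzymes, as is known for glycine and lysine, and glutaminyl-tRNA in mitochondria is made by an amidotransferase from glutamyl-tRNA. In the annotation used here the transcripts of GlyRS code for 679 or 765 amino acids and those of LysRS for 574 or 607. Those of ThrRS code for 690 or 747 and those of HisRS for 522, 554 or 564, while the single GlnRS transcript codes for 778. GlyRS had 94.0, 75.8 and 76.5 TPM in H2O2, against 94.5, 88.7 and 81.3 TPM in control. LysRS had 128, 80.7 and 91.8 TPM in H2O2, against 125, 89.2 and 102 TPM in control. Both overlapped between the groups, and the gene-level files do not tell the enzyme forms apart.

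Many synthetase genes share their place with another gene, which bears on how far their reads are their own. Of the 35, 16 overlap the span of a gene on the opposite strand. Without strand-specific counting, reads from a stretch that both transcripts hold could not be told apart. HisRS overlaps Bx on the same strand, which stood at 21.8 ± 2.82 CPM in H2O2 and 21.8 ± 2.36 CPM in control, while HisRS stood at 243 ± 26.4 CPM in H2O2 and 243 ± 1.65 CPM in control. AspRS overlaps asRNA:CR43468 on the same strand, which stood at 4.46 ± 0.38 CPM in H2O2 and 4.30 ± 0.74 CPM in control. AspRS itself stood at 313 ± 21.7 CPM in H2O2 and 313 ± 28.7 CPM in control. Among the synthetase genes only HisRS and AspRS had a posterior SD of the count above 0, of at most 2.51 and 0.48 reads. The antisense gene asRNA:CR46092 opposite GluProRS stood at 0.017 CPM in H2O2 and 0.018 CPM in control. TyrRS and GluRS-m are neighbours on one strand of 3L, 171 nt apart, with TyrRS upstream, and their levels differ. TyrRS stood at 83.0 ± 5.57 TPM in H2O2 and 87.5 ± 2.72 TPM in control, and GluRS-m at 4.84 ± 0.806 TPM in H2O2 and 5.14 ± 1.30 TPM in control.

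Whether 30 min of H2O2 changed these transcripts was tested with edgeR's quasi-likelihood fit over all 8955 genes, in which a gene with a Benjamini-Hochberg adjusted p under 0.05 was called. None of the 35 synthetase genes was called. The fit called 230 genes higher in H2O2, or 2.57%, and 51 lower, or 0.570%, and of the synthetase genes 0 were in either set. At an unadjusted p under 0.05 there were 2, AspRS-m and GluProRS, both lower in H2O2, or 5.71% against 14.0% of all genes, and DESeq2 called 0 of 35, with a lowest adjusted p of 0.0641. The log2 fold changes (H2O2 over control, here and below) ran from −0.36 for GluProRS to 0.09 for PheRS-m, and 24 of the 35 lay within 0.1 of 0. Their median was −0.0027, against 0.02 over all genes tested. By place, the medians were −0.0066 for the 20 cytosolic and 0.0073 for the 15 mitochondrial genes, and by class −0.06 for the 18 of class I and 0.02 for the 16 of class II. A total of 17 genes had a positive and 18 a negative value, but on the TPM scale, where the median of all genes was −0.06, all 35 were negative.

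Same-numbered H2O2 and control libraries deviated together, so a second fit took the replicate number as a block. With this block the fit called 805 genes higher, or 8.99%, and 1142 lower, or 12.8%. None of the 35 synthetase genes was higher and 5 were lower, or 14.3%, a share close to that of all genes. The 5 were GluProRS, AspRS-m, IleRS-m, LeuRS and LeuRS-m. Their values stayed negative under all 20 alternative settings, as did those of 5 genes that were not called (AlaRS-m, ArgRS-m, MetRS, ValRS and ValRS-m), and LeuRS came to −0.07 and LeuRS-m to −0.13 with the length trend removed. Leaving out a pair of libraries left 1 called without pair 1 (GluProRS), 0 without pair 2 and 2 without pair 3 (AspRS-m and GluProRS). None of the 35 was called with the block once the trend with transcript length was removed as well, where 3 had an unadjusted p under 0.05 and the lowest adjusted p was 0.104 (IleRS-m).

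GluProRS, which carries glutamyl- and prolyl-tRNA synthetase in one chain, had the lowest value of the set. It had 320, 232 and 264 CPM in H2O2, against 381, 322 and 343 CPM in control. Every H2O2 library lay below every control library, by a narrow margin between H2O2 replicate 1 and control replicate 2. Its log2 fold change was −0.36 (SE 0.15, adjusted p = 0.346) and −0.37 with the block (adjusted p = 0.00457).

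AspRS-m, on the plus strand of 2L from 16827078 to 16832093 (dm6), charges the mitochondrial aspartate tRNA. It had 186, 170 and 175 CPM in H2O2 and 222, 214 and 202 CPM in control, again without overlap. The log2 fold change was −0.27 (SE 0.10, adjusted p = 0.283), with an adjusted p of 0.0173 in the blocked fit.

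IleRS-m, the gene of the mitochondrial isoleucine enzyme on the plus strand of 3L from 16100280 to 16103482, was a low-count gene whose libraries differed widely. It had 16.0, 9.24 and 12.9 CPM in H2O2, against 19.3, 12.3 and 15.9 CPM in control, so the groups overlapped although each H2O2 library lay below its same-numbered control. Its log2 fold change was −0.32 (SE 0.24, adjusted p = 0.705), and with the block −0.33 (SE 0.08, adjusted p = 0.0183).

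The leucine enzymes of the cytosol and the mitochondrion had similar values. LeuRS lies on the minus strand of 2L from 3510328 to 3514656, and LeuRS-m on the plus strand of 3L from 4825853 to 4829038. LeuRS had 153, 136 and 128 CPM in H2O2, against 170, 178 and 145 CPM in control. LeuRS-m had 67.0, 54.6 and 58.1 CPM in H2O2, against 77.3, 65.2 and 66.0 CPM in control. Both overlapped between the groups and were lower in all 3 pairs. LeuRS had −0.24 (adjusted p = 0.484, and 0.0368 with the block), and LeuRS-m had −0.21 (adjusted p = 0.557, and 0.0364 with the block).

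Counted by overlap of CPM values alone, 0 of 35 synthetase genes had every H2O2 library above every control library, against 9.98% of all genes, and 3 had every H2O2 library below, which is 8.57% against 10.4% of all genes. The third gene besides GluProRS and AspRS-m was MetRS, which charges both initiator and elongator methionine tRNAs. MetRS had 147, 159 and 152 CPM in H2O2, against 167, 199 and 161 CPM in control (log2 fold change −0.20, adjusted p = 0.552). Taken by pairs, 13 genes were lower in H2O2 in all 3 pairs, 3 were higher in all 3 (PheRS-m, ThrRS and TrpRS) and 19 were mixed. That is 37.1% lower and 8.57% higher, against 26.7% lower and 30.3% higher in all 3 pairs among all genes. On the TPM scale 0 genes were above without overlap, against 6.81% of all genes, and 5 were below (AspRS-m, CysRS-m, LeuRS-m, MetRS and ValRS), which is 14.3% against 15.4% of all genes. GluProRS overlapped on that scale, with 80.5, 54.8 and 67.5 TPM in H2O2, against 94.2, 76.4 and 82.8 TPM in control.

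**Figure D3:**
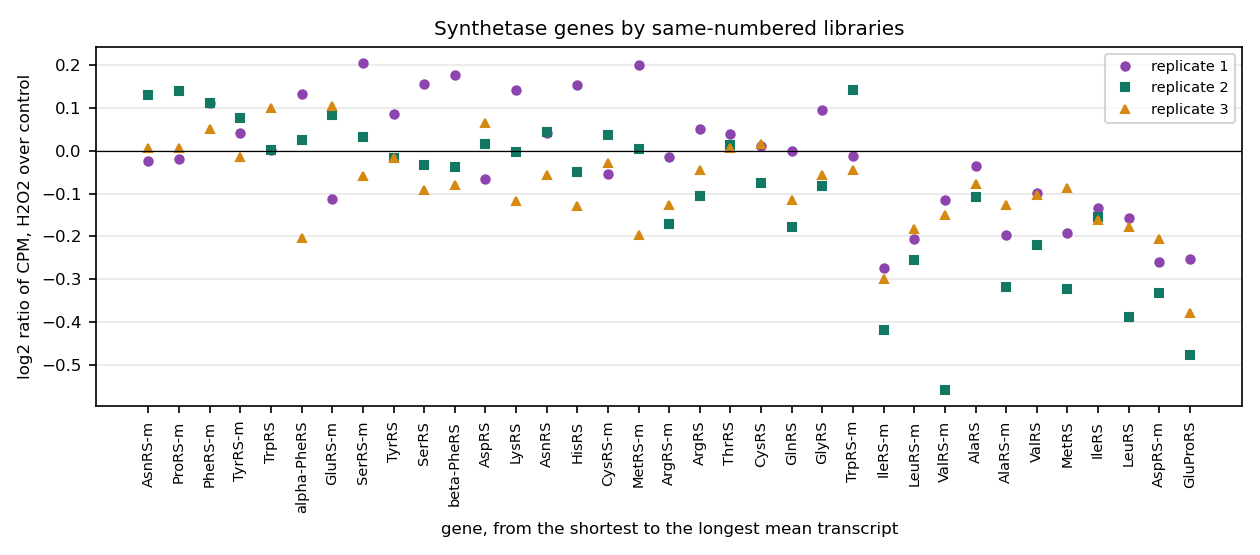
log2 ratio of CPM, H2O2 over control, for each synthetase gene in the 3 pairs of same-numbered libraries (replicate 1 purple, 2 green, 3 orange), with genes ordered from the shortest to the longest mean transcript. From IleRS-m rightward all 3 points lie below 0 for every gene, while to the left they mostly scatter around 0; GluProRS, at the far right, has the longest transcript.

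The genes with the highest values were PheRS-m, SerRS-m, ProRS-m and TyrRS-m, all mitochondrial. PheRS-m had 31.2, 25.2 and 26.2 CPM in H2O2, against 28.8, 23.3 and 25.3 CPM in control (log2 fold change 0.09, SE 0.14, adjusted p = 0.884). SerRS-m had 37.8, 33.2 and 31.4 CPM in H2O2, against 32.8, 32.5 and 32.8 CPM in control (0.06, adjusted p = 0.905). All 4 genes overlapped between the groups. ProRS-m had 25.1, 21.7 and 18.9 CPM in H2O2, against 25.5, 19.7 and 18.9 CPM in control (0.04). TyrRS-m had 24.4, 20.3 and 20.9 CPM in H2O2, against 23.7, 19.3 and 21.1 CPM in control (0.03).

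ValRS-m, the mitochondrial valine enzyme, was the remaining gene among the 4 lowest. It had 9.03, 6.59 and 7.75 CPM in H2O2, against 9.78, 9.69 and 8.60 CPM in control (log2 fold change −0.26, adjusted p = 0.61, and 0.122 with the block). The groups overlapped, and H2O2 replicate 2 was the lowest library. Further below 0 without a call in either fit were AlaRS-m and MetRS with values of −0.21 and −0.20, and IleRS and ValRS with −0.15 and −0.14. The 3 most abundant genes were not called in either fit, with ThrRS at 0.02 (adjusted p = 0.98), AspRS at 0.0028 (0.998) and AlaRS at −0.07 (0.906). The other genes with values under 0.1 in size were TrpRS, beta-PheRS, SerRS, TyrRS, LysRS, AsnRS, alpha-PheRS, HisRS, GlyRS, CysRS, ArgRS and GlnRS in the cytosol, and AsnRS-m, TrpRS-m, GluRS-m, MetRS-m and CysRS-m in the mitochondrion, with ArgRS-m at −0.10.

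The values followed transcript length. Across the 35 genes, whose mean lengths ran from 1482 to 4554 nt, Pearson's r between the log2 fold change and log2 length was −0.88 and Spearman's rho −0.87. Across all genes tested they were −0.21 and −0.54. The genes share libraries and depth, so these are descriptions. All 14 synthetase genes up to 2000 nt had positive values (median 0.03, against 0.11 for all genes of that length), although all 14 were negative on the TPM scale. Of the 11 genes between 2000 and 3000 nt, 8 were negative (median −0.02, against −0.03 for all genes). All 8 genes between 3000 and 4000 nt were negative (median −0.21, against −0.14), with AlaRS and IleRS above 0 once the length trend was removed and AlaRS at 0 under upper-quartile scaling, as were both longer ones, AspRS-m and GluProRS (median −0.31, against −0.29). With the block, 57.0% of all genes above 4000 nt were called lower, as were both synthetase genes there, and between 3000 and 4000 nt 20.9% of all genes and 2 of the 8 were. With the length trend removed, r over the 35 genes was −0.38, the values ran from −0.25 (IleRS-m) to 0.05, and GluProRS and AspRS-m stood at −0.15 and −0.09. The part of the length trend in the lower values was not tested further.

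**Figure D4:**
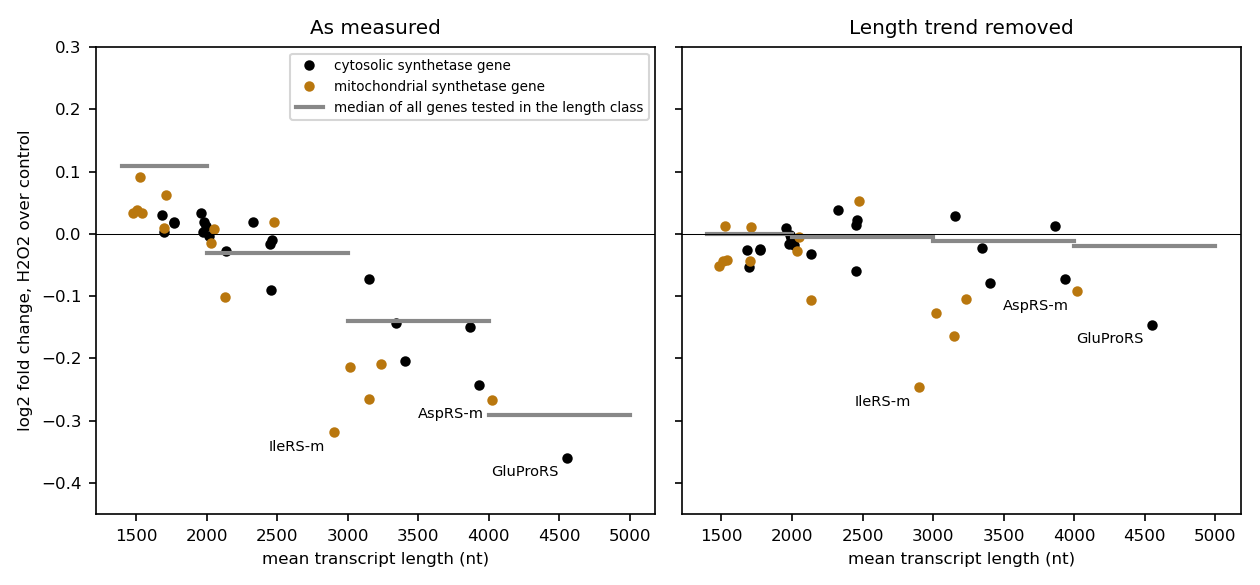
log2 fold change, H2O2 over control, of the 35 synthetase genes against mean transcript length (nt), cytosolic in black and mitochondrial in brown, with grey lines at the median of all genes tested in 4 length classes (the first class also holds shorter genes, and the last longer ones, than drawn). On the left, values as measured fall with length from PheRS-m at 0.09 to GluProRS at −0.36; on the right, with the trend of each library on length removed, IleRS-m is lowest at −0.25. On the TPM scale all 35 values are negative.

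GluProRS stood apart in the length of its transcripts, which was examined after its values were seen. The gene lies on the minus strand of chromosome 3R, from 23952136 to 23958391 (dm6), and the annotation gives it a pair of transcripts. The long one has 5405 nt in 6 exons and codes for all 1714 amino acids of the fused enzyme. The short one has 3151 nt in 3 exons, begins at 23955499 within the gene, ends at the same place as the long one and codes for 996 amino acids on the prolyl side. The deposited length of a gene is the mean of its transcripts weighted by their estimated share. It was 4370, 4348 and 4374 nt in H2O2, against 4756, 4755 and 4720 nt in control. The groups did not overlap, and the spread within each was small.

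From these lengths the short transcript made up 45.9%, 46.9% and 45.7% of GluProRS transcripts in H2O2, against 28.8%, 28.9% and 30.4% in control (exact permutation test, two-sided, p = 0.1, the smallest that 3 against 3 libraries allow). With these shares multiplied by the TPM of the gene, the long transcript stood at 43.5, 29.1 and 36.7 TPM in H2O2, against 67.0, 54.4 and 57.6 TPM in control. This is a log2 difference of −0.71 with no overlap (exact permutation p = 0.1, which the lack of overlap fixes). It rests on the same deposited lengths as the shares, so it is not a separate test. The short transcript stood at 37.0, 25.7 and 30.9 TPM in H2O2, against 27.1, 22.0 and 25.2 TPM in control, a log2 difference of 0.33. It was higher in H2O2 in all 3 pairs, but the groups overlapped (exact permutation p = 0.2).

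The deposited lengths of 4606 genes with several transcripts were then compared with limma on the log2 scale. It called 25 genes, or 0.543%, of which 17 were shorter and 8 longer in H2O2. GluProRS had the smallest p of all, with a log2 length difference of −0.12 (SE 0.0044, adjusted p = 0.0113), and was the only one of the 16 synthetase genes tested to be called. With the replicate block 1 gene was called in all and GluProRS was not (adjusted p = 0.152), and it missed the threshold without control replicate 1 (0.0504) or control replicate 2 (0.0533), at a difference of −0.12 in each. AspRS-m had the next smallest p among the synthetase genes, with 4051, 4033 and 4031 nt in H2O2, against 4003, 4008 and 4005 nt in control (adjusted p = 0.149). The split of GluProRS rests on the deposited mean length alone, and the part that the trend with length has in it was not tested.

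**Figure D5:**
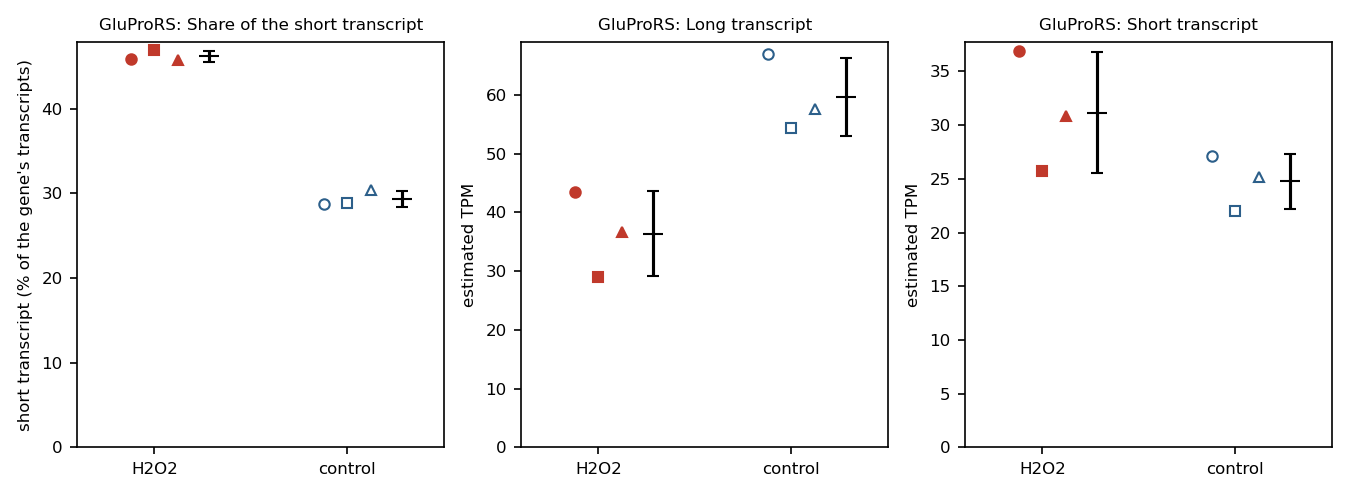
GluProRS in each library, with H2O2 filled red and control open blue, and the mean with SD bars (n = 3 each) at the right of each group. The left panel gives the short transcript as a percentage of the gene's transcripts, and the other panels the estimated TPM of the long and the short transcript. The short share lies between 45.7% and 46.9% in H2O2 and between 28.8% and 30.4% in control.

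The synthetase genes also shared a difference between replicates. Replicate 1 was the highest library in both groups for 25 of the 35, against 30.3% of all genes tested. Over replicates 2 and 3 it was higher by a median log2 value of 0.25 in H2O2 and 0.18 in control, whereas over all genes the medians were −0.0030 and −0.01. The pattern was not limited to the synthetase genes. Among the synthetase partners read below, AIMP1, AIMP2, AIMP3, Slimp, GatA and GatC also had replicate 1 highest in both groups, while GatB and Dtd did not. Without H2O2 replicate 1 the median log2 fold change of the 35 genes was −0.12 and 33 were negative, but 0 were called.

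The genes that work with the synthetases were read in the same fits. Of 60 genes in 5 related lists, 56 were matched to the files and tested, and 0 were called in either direction without the block, with edgeR or with DESeq2. The medians below stand beside 0.02 over all genes tested, and the edgeR calls without the block beside 2.57% higher and 0.570% lower. Blocked calls stand beside 8.99% higher and 12.8% lower of all genes, and counts at an unadjusted p under 0.05 beside 14.0%. The list of synthetase partners held the multisynthetase scaffold genes AIMP1, AIMP2 and AIMP3, the mitochondrial SerRS-like gene Slimp, the amidotransferase genes GatA, GatB and GatC, and Dtd, which removes D-amino acids from tRNA. Its 8 genes had a median of 0.14, with 0 called in either fit and 0 at an unadjusted p under 0.05. Its most abundant members were AIMP2, at 92.8, 67.2 and 64.1 CPM in H2O2 and 79.9, 60.4 and 63.1 CPM in control, and AIMP1, at 95.4, 55.5 and 52.9 CPM in H2O2 and 74.5, 45.8 and 56.3 CPM in control. Their transcripts, of 1070 and 1036 nt, are short, and the log2 fold changes were 0.14 and 0.21.

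Charged tRNAs are brought to the ribosome by elongation factors. Among 7 cytosolic factors (median 0.11) and 9 mitochondrial translation factors (median 0.03), 0 were called in either fit and 0 had an unadjusted p under 0.05. eEF1alpha1, the carrier of charged tRNA, stood at 20712 ± 1365 CPM in H2O2 and 20368 ± 1481 CPM in control (0.02). eEF2, which moves the ribosome along, stood at 11601 ± 726 CPM in H2O2 and 12331 ± 550 CPM in control (−0.09). The mitochondrial carrier mEFTu1 stood at 143 ± 48.4 CPM in H2O2 and 132 ± 34.7 CPM in control, and its exchange factor mEFTs at 59.5 ± 13.7 CPM in H2O2 and 58.3 ± 9.82 CPM in control.

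The integrated stress response lowers initiation and raises genes of amino acid supply, in mammals several synthetase genes among them. Of 19 genes of this list (median 0.06), 0 were called without the block and 3 had an unadjusted p under 0.05, beside 14.0% of all genes. With the block 2 were higher and 3 lower. Thor, the inhibitor of cap-dependent initiation, stood at 37.2, 92.2 and 54.7 CPM in H2O2, against 23.6, 50.9 and 37.5 CPM in control. It was higher in every pair although the groups overlapped (log2 fold change 0.72, adjusted p = 0.505, and 0.000183 with the block). trbl, a pseudokinase that binds Akt, stood at 52.2, 62.2 and 58.3 CPM in H2O2, against 70.7, 85.6 and 64.9 CPM in control (−0.36, adjusted p = 0.288, and 0.00774 with the block). Both kept their calls with the block once the length trend was removed, and were the only ones of the list to do so. Gcn2, the sensor of uncharged tRNA, stood at 70.2, 73.2 and 71.6 CPM in H2O2, against 83.3, 93.5 and 82.9 CPM in control, without overlap (−0.27, adjusted p = 0.267, and 0.0147 with the block). Its transcript has a mean length of 5737 nt, and its value with the block once the length trend was removed was 0.03 (adjusted p = 0.826). The other calls with the block were PEK, the kinase of the endoplasmic reticulum stress arm, lower at −0.36 (adjusted p = 0.016), and the glutamine synthetase gene Gs1, higher at 0.35 (0.0203). The most abundant genes of the list were the transcription factor genes crc, the fly ATF4, and Xrp1, at 1164 ± 166 and 1091 ± 286 CPM in H2O2, against 1135 ± 85.0 and 1120 ± 314 CPM in control, with adjusted p of 0.966 and 0.980.

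tRNA genes themselves are read by RNA polymerase III. Of 13 genes of its machinery (median 0.07), 0 were called without the block and 1 had an unadjusted p under 0.05, beside 14.0% of all genes. With the block 2 were lower and 0 higher. These were the genes of its largest subunits, Polr3A and Polr3B. Polr3A stood at 78.4, 60.5 and 76.6 CPM in H2O2, against 98.1, 83.2 and 94.0 CPM in control, without overlap (−0.35, adjusted p = 0.294, and 0.00344 with the block). Polr3B stood at 100.1, 72.4 and 89.2 CPM in H2O2, against 112, 102 and 110 CPM in control (−0.31, adjusted p = 0.402, and 0.0127 with the block). With the length trend removed as well, neither was called, with adjusted p of 0.158 and 0.130. Bdp1, a subunit of its initiation factor TFIIIB and the most abundant gene of the list besides Polr3B, stood at 88.4 ± 2.49 CPM in H2O2 and 83.3 ± 1.13 CPM in control (0.09, adjusted p = 0.828).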

How the data were processed

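RNA of 6 S2 libraries (3 H2O2, 3 control) was read from the gene tables the authors deposited. Per the submitters' processing notes these were made with STAR 2.4.0j and RSEM 1.2.21 on dm6. The tables the authors deposited hold, per the file headers, an expected count, a TPM value and a transcript length per gene. The library kit is stranded, per the labels' protocols. Which annotation release was used, and whether counting used strand, are not given in the sources used here. Symbols and positions came from the Ensembl annotation of BDGP6 (dm6). No sequence is printed.

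Expected counts were rounded, filtered by filterByExpr and scaled by TMM in edgeR 4.0.16 (R 4.3.3), and tested with a robust, two-sided quasi-likelihood F test with group as the only term. Adjusted p-values run over all 8955 genes. CPM are TMM-normalized. Deviations from the group means correlated at 0.717, 0.518 and 0.601 between libraries numbered 1, 2 and 3, so the numbers were read as pairing them, from the data and not from the labels. DESeq2 1.42.0 and limma 3.58.1 gave alternatives. The length trend was removed as a smooth trend of each library (lowess span 0.3) used as an offset. Posterior SDs of the synthetase counts were at most 2.51 reads, so few reads were shared with other genes. No library pair was a duplicate, with chi-square per degree of freedom from 45.5 to 211. Fits were tested on simulated data.

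Synthetase genes named with every library are those called in either fit, the 4 highest and 4 lowest fold changes, the 3 highest and 3 lowest TPM, and GluProRS, the PheRS genes, GlyRS, LysRS, LeuRS and LeuRS-m. From each related list came the genes called in either fit with the smallest p (up to 3) and the 2 most abundant. The members and lists were chosen with earlier results of these data known. MetRS with all libraries, PEK, Gs1, Hml, the AspRS pair, the transcript length test and the neighbouring genes were chosen after their values were seen.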

Additional observations from a re-analysis of the deposited data

How the results depend on the processing

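Across the alternatives no synthetase gene was ever called higher. Calls of lower genes needed the replicate block: 5 with it, 8 with it in limma on log2(TPM + 1), where AlaRS-m, IleRS and MetRS joined, and 0 with it and the length trend removed. In the limma fit with the block all 35 genes had negative values, and only 27.9% of the calls over all genes were higher. Leaving out one library gave 0 synthetase calls each time, and leaving out one pair under the block gave 0 to 2. The median log2 fold change of the 35 genes was 0.070 under upper-quartile scaling and −0.11 in limma with either pseudocount or with its block, −0.12 to 0.039 with a library left out, and −0.072 with the block and pair 1 left out. The cytosolic median was 0.066 and −0.11 under the first 2 of these, −0.14 to 0.042 with a library left out, and −0.075 without pair 1. The mitochondrial median was 0.078 under upper-quartile scaling, −0.044 with the length trend removed and −0.041 with the block as well, −0.083 in limma with a pseudocount of 1 (blocked or not) and −0.093 with 0.1, and −0.12 to 0.040 with a library left out. The median of all genes was 0.10 under upper-quartile scaling, −0.06 in limma with a pseudocount of 1 and −0.07 with 0.1, against 0.02 as reported. The cause of the other movements was not tested.

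Over all genes, 230 were called higher and 51 lower (81.9% higher). DESeq2 called 360 and 346 (51.0%), a filter of 50 counts in 3 libraries 60 and 16, the replicate block 805 and 1142 (41.3%), the block with the length trend removed 536 and 145, and limma on log2(TPM + 1) with the block 521 and 1348 (27.9%). The synthetase genes called lower in that last fit stand beside these 1348 of the 8955 genes tested. Fewer were lower under upper-quartile scaling (26, with 242 higher, 90.3%) and with the length trend removed (10, with 204 higher, 95.3%), and 80 were lower in limma on log2(TPM + 0.1). Leaving out one library gave 0 to 134 higher and 0 to 20 lower, with 0 of either without H2O2 replicate 2, control replicate 2 or control replicate 3, and under the block 642 higher and 894 lower without pair 1, 361 and 407 without pair 2, and 732 and 920 without pair 3. In the related lists the block called 2 genes higher and 5 lower, with the length trend removed 1 and 1, in limma on log2(TPM + 1) 2 and 7, and without pair 1, 2 or 3 it called 4, 1 or 5 higher and 3, 1 or 5 lower. The pairing of libraries left the GluProRS length difference at −0.12 but not called; with a library left out it was −0.12 each time.

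The main limits are 3 libraries a group, a replicate pairing read from the data alone, and a trend of fold change with transcript length that runs through all genes. The 5 genes called with the block have mean lengths of 2900 to 4554 nt. TPM values keep no depth and sum to a fixed total. Gene tables give no reads per transcript, so the GluProRS split rests on a deposited mean length. The member with the fewest counts, GluRS-m, had 221 to 329 a library. Other alternatives left each count of synthetase calls as reported, and the block changed no other call among the 35 genes.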

Other observations

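Genes beside the synthetase genes were read in the same fits, within 5 kb on the same strand or overlapping on the opposite strand. They were named after their values were seen. Of 20 tested genes downstream, 1 was called higher and 0 lower, and of 18 tested genes upstream, 1 was called higher and 0 lower. Of the tested overlapping genes, 14 on the opposite strand and 2 on the same strand, 0 were called. Over all 54 neighbours tested this is 2 higher and 0 lower, beside 2.57% higher and 0.570% lower of all genes. The downstream gene called was CG17258, which begins 144 nt beyond SerRS. It had 2.51, 2.46 and 1.75 CPM in H2O2, against 0.725, 0.502 and 0.525 CPM in control (log2 fold change 1.93, adjusted p = 0.02), while SerRS had 240, 192 and 176 CPM in H2O2, against 216, 197 and 188 CPM in control. The upstream gene was ATPsynbetaL, a relative of the mitochondrial ATP synthase beta subunit gene, which ends 191 nt before IleRS-m. It had 2.06, 1.60 and 1.22 CPM in H2O2, against 0.161, 0.264 and 0.221 CPM in control (2.89, adjusted p = 0.0134).

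Among the genes that missed the threshold, vg, which encodes a wing selector protein and lies 1032 nt downstream of AspRS, had 0.808, 1.46 and 0.481 CPM in H2O2, against 0.188, 0.079 and 0.194 CPM in control (2.56, adjusted p = 0.0592, and 0.0031 with the block). CG1246, opposite ProRS-m, had 1.64, 2.77 and 1.57 CPM in H2O2, against 0.537, 0.819 and 0.498 CPM in control (1.69, adjusted p = 0.0541, and 0.000368 with the block). These 4 higher genes were scarce beside the synthetase transcript next to them, at no more than 0.819 CPM in any control library. None of their H2O2 libraries overlapped the control libraries, as was so, with H2O2 higher, for 9.98% of all genes. Across the files, 11587 to 12061 genes had a count above 0 in the H2O2 libraries, against 11154 to 11304 in control. Of the 54 neighbours tested, the block called 4 higher and 5 lower, beside 8.99% higher and 12.8% lower of all genes. The lower genes were CG15099 downstream of MetRS (−0.44, adjusted p = 0.00329 with the block), Cyfip upstream of SerRS-m (−0.30, 0.0164), Serinc opposite GluRS-m (−0.24, 0.0264), FLASH downstream of ValRS (−0.24, 0.0388) and CG6805 downstream of AsnRS-m (−0.22, 0.0428). Of these 5, Cyfip and FLASH did not overlap between the groups, as was so, with H2O2 lower, for 10.4% of all genes. CG15099, with 295, 350 and 343 CPM in H2O2, against 347, 528 and 478 CPM in control, did overlap.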
